A study of Mus musculus with 2 samples.

Results

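The transcripts of 10 genes that carry glucose carbon to lactate, or that respond to low oxygen, were followed through sorted cells of embryonic mouse brain. They were found by symbol in both count matrices, and all 10 were present among the 31053 features of each. Slc2a1 brings glucose into the cell. Aldoa, Tpi1, Gapdh, Pgk1, Eno1 and Pkm encode enzymes of glycolysis. Ldha encodes the lactate dehydrogenase subunit that favours lactate, and Slc16a3 encodes MCT4, a plasma membrane carrier that exports it. Bnip3 encodes a protein of the outer mitochondrial membrane that promotes removal of mitochondria and is a widely used hypoxia-responsive gene.

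Glycolysis splits glucose into pyruvate in the cytosol, and lactate dehydrogenase turns pyruvate into lactate while returning the cofactor that the Gapdh step needs. When oxygen is low, hypoxia-inducible factor (HIF) escapes degradation and raises transcription of genes of this route, all of those described here being commonly listed among its targets. Microglia, the resident macrophages of the brain, are known to use more glycolysis when activated.

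Cells came from the hypothalamic and thalamic region of wild-type embryos of CD1, an outbred mouse strain, at the embryonic day E15.5, and were sorted as positive for Cd11b and Cd45, surface proteins of myeloid cells. The control library pooled 10 embryos of 1 dam. The stressed library pooled 5 embryos of 1 dam that had been placed at 4 °C for 30 min on each of 5 days, from E11.5 to E15.5, so the embryos were exposed through the dam. Each condition is therefore 1 litter in 1 library, litter and condition cannot be told apart, and no test between conditions is possible. Intervals given are at 95% and reflect counting error alone.

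The control library held 1156 barcodes and 2833015 UMIs (unique molecules counted), and the stressed library 1467 barcodes and 6582188 UMIs, with a median of 1948 and 3767 UMIs per barcode. After filtering, 687 control and 1146 stressed cells were microglia-like, with a summed level of 14 microglial markers of 9684 and 9895 CPM (counts of a gene scaled to a common total). In these cells mitochondrial transcripts took 2.35% of control and 3.62% of stressed UMIs. Ribosomal protein transcripts took 17.9% and 21.1%, and 14 genes of the dissociation response summed to 355 and 393 CPM. The parts of depth, mitochondrial share and dissociation in the results were not tested. Cells with Y-linked and no Xist UMIs numbered 135 in control and 0 in stressed cells. The libraries shared 13 barcodes, 1 of them kept in both.

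Promoter sequences of 4 of the genes are shown because they carry, or lack, the core letters of the HIF site, and because their differences between the libraries vary: Bnip3 and Slc16a3 had the lowest ratios, Ldha lay between, and Tpi1 was level. Eno1, the highest, is not shown. The windows are RefSeq promoters on GRCm38.p6, from 250 bases before to 50 after a transcript start, read 5′ to 3′ on the gene's strand. Capitals mark ACGTG on either strand, so that the reverse strand appears as CACGT, and a palindromic CACGTG is a match on both strands that overlap. The Ldha window lies at chr7:46845554-46845853 on the plus strand, that of Slc16a3 at chr11:120948817-120949116 on the plus strand, that of Bnip3 at chr7:138909457-138909756 on the minus strand, and that of Tpi1 at chr6:124814109-124814408 on the minus strand.
Ldha: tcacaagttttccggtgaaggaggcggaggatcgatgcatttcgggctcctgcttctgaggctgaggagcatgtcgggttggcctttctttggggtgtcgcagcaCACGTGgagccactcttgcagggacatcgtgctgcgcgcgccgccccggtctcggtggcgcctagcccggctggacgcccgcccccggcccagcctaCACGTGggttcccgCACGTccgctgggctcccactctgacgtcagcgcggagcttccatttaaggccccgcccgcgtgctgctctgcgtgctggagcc
Slc16a3: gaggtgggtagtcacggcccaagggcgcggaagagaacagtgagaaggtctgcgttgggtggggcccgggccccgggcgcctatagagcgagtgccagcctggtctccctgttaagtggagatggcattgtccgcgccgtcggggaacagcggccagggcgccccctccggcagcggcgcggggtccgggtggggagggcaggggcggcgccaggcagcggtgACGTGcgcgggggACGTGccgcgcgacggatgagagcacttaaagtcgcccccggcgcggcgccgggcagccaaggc
Bnip3: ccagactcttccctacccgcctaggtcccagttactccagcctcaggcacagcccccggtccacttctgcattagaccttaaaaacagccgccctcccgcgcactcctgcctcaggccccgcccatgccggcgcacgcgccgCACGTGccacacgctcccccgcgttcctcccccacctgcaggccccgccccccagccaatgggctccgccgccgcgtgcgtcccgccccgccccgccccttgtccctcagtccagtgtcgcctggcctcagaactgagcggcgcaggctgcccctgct
Tpi1: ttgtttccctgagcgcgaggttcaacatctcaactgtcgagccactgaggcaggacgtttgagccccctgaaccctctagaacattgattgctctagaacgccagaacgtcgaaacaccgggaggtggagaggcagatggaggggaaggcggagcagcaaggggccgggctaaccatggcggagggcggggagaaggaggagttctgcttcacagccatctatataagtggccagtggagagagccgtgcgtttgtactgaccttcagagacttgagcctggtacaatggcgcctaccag
The Ldha window shown held 3 such stretches, 2 of them CACGTG, while the other Ldha window, at chr7:46846832-46847131 and not shown, held 0. That of Slc16a3 held 2, that of Bnip3 held 1, which is CACGTG, and that of Tpi1 held 0. All 10 genes matched the RefSeq table, with 16 windows in all, some of which overlap. ACGTG stood in 9 of the 16 windows and in at least 1 window of 8 of the 10 genes, Tpi1 and Eno1 having none. Aldoa, whose log2 ratio in microglia-like cells was 0.00, was among these 8, and whether the letters go with the ratios was not tested. Of all 32851 promoter windows of the same length, 19.6% held ACGTG. The related letters GCGTG stood in 8 of the 16 windows and in 32.4% of all windows. A match describes these letters and is not evidence of binding.

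The first question was how the genes compared between litters in microglia-like cells. Slc16a3 and Bnip3 differed most, and were lower in the stressed library by over 1.5 times. Ldha, Gapdh, Pgk1 and Pkm were lower by less, Aldoa and Tpi1 were nearly equal, and Eno1 was higher. Summed over the 10 genes, the level was 4152 CPM in the control (4059–4247) and 3479 CPM in the stressed library (3428–3530).

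Slc16a3, the lactate exporter, was counted 109 times in control and 171 times in stressed microglia-like cells. Its level was 59.9 CPM (49.2–72.3) and 33.0 CPM (28.2–38.3) (log2 ratio of stressed over control −0.86, interval −1.22 to −0.50), or 1.82 times lower. The 2 intervals do not overlap.
Bnip3 was counted 156 and 234 times. Its level was 85.7 CPM (72.8–100.3) in control and 45.2 CPM (39.6–51.3) in stressed cells (log2 ratio −0.92, interval −1.22 to −0.62), or 1.90 times lower. Of the 7569 genes with at least 10 CPM in either library, 1.86% had a lower ratio than Bnip3 and 2.34% a lower ratio than Slc16a3.

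Ldha, the lactate-forming subunit, stood at 601 CPM (566–638) in control and 494 CPM (475–513) in stressed cells (log2 ratio −0.28, interval −0.39 to −0.18). Gapdh, which oxidises the triose phosphates, stood at 1626 CPM (1568–1686) and 1204 CPM (1174–1234) (log2 ratio −0.43, interval −0.50 to −0.37). Both were lower in the stressed library beyond counting error, and both by less than 1.5 times. Pgk1, the first ATP-forming enzyme, stood at 295 and 244 CPM (log2 ratio −0.27, interval −0.42 to −0.13). Pgk1 lies on the X chromosome, and in cells with Xist its ratio was −0.22. Pkm, which forms pyruvate, stood at 437 and 372 CPM (log2 ratio −0.23, interval −0.35 to −0.11). Its isoforms cannot be told apart in 3′ counts.

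Aldoa, which splits the hexose, stood at 546 CPM (513–581) and 547 CPM (527–568) (log2 ratio 0.00, interval −0.10 to 0.11). Tpi1, which interconverts the triose phosphates, stood at 342 CPM (316–370) and 345 CPM (329–361) (log2 ratio 0.01, interval −0.12 to 0.14). For both enzymes of neighbouring steps the intervals hold 0. Eno1, which forms phosphoenolpyruvate, stood at 134 CPM (118–152) and 176 CPM (164–187) (log2 ratio 0.39, interval 0.18–0.60), and was the only one of the 10 with an interval above 0. Slc2a1, the glucose carrier, was counted 45 and 103 times, at 24.7 CPM (18.0–33.1) and 19.9 CPM (16.2–24.1). Its log2 ratio of −0.32 has an interval from −0.83 to 0.22, so a difference was not detectable at this depth.

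**Figure D1:**
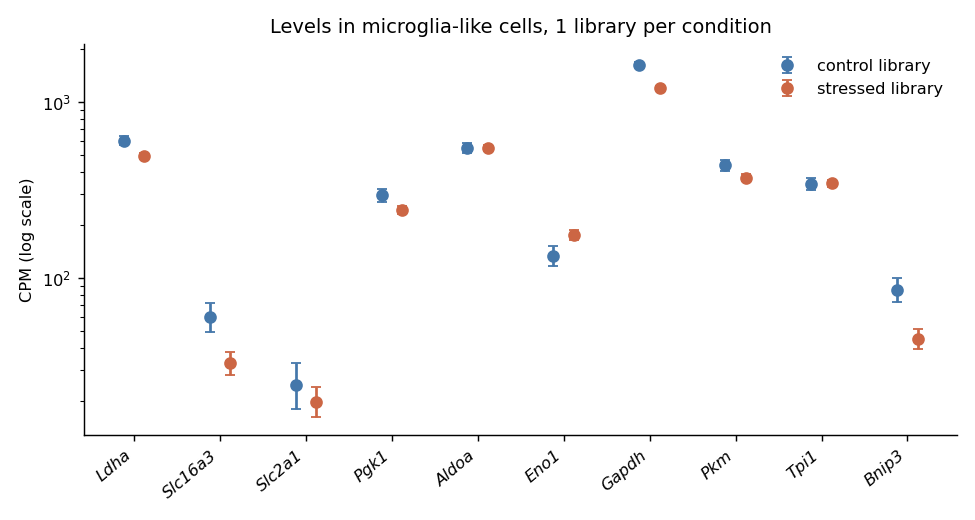
Level of each gene in microglia-like cells (CPM, log axis) in the control and the stressed library, with 95% counting intervals as bars. Slc16a3 and Bnip3 show the widest gaps, Aldoa and Tpi1 coincide, and Eno1 alone is higher in the stressed library beyond its interval.

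Of the 10 genes, 2 were at least 1.5 times lower and 0 at least 1.5 times higher, while 7.43% of all 7569 genes were that much lower and 3.16% that much higher. At 2 times, 0 of the 10 passed in either direction, against 1.4% of all genes lower and 0.687% higher. Counting intervals lay wholly below 0 for 6 of the 10, against 14.1% of all genes, and above 0 for 1, against 6.5%. Most of these genes have more UMIs than a typical gene and so narrower intervals, which makes the last shares unlike in depth. The median log2 ratio was −0.28 over the 10 genes and −0.08 over all genes.

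The size of these ratios depended on which cells were compared. In both libraries, 9 of the 10 genes had a higher CPM in each next tertile of cells by UMIs per cell, Slc2a1 being the exception. How many of all genes rise in this way was not computed, so the rise is not shown to be particular to these genes. Ldha stood at 319, 364 and 807 CPM in the low, middle and high tertile of control cells, and at 261, 318 and 658 CPM in those of stressed cells. Tertile by tertile, its log2 ratios were −0.29, −0.19 and −0.29. Slc16a3 gave −0.71, −1.37 and −0.71, and Bnip3 gave −0.83, −1.06 and −0.88, while Eno1 gave 0.33, 0.59 and 0.34. The direction of these 4 genes, of Gapdh and of Slc2a1 was the same in every tertile, and so was that of Pgk1, at −0.01 in the low one. The low tertiles of control and stressed cells held 7 and 12 UMIs of Slc16a3, 8 and 14 of Slc2a1 and 14 and 22 of Bnip3. No intervals are given for the tertile ratios. Pkm stood at 0.13 in the low tertile and below 0 in the others, and Aldoa and Tpi1 also changed sign. In all, 7, 9 and 8 of the 10 ratios were below 0 in the low, middle and high tertile. Over all microglia-like cells 60.7% of all genes were below 0, and that share was not computed by tertile. The tertiles differ in depth, with median UMIs of 1361, 2204 and 3832 in the control and 2239, 3944 and 6688 in the stressed library. When only cells of 1500 to 4000 UMIs were compared, an alternative added after seeing the data, 9 of the 10 ratios were below 0. The median over all genes in this window was −0.10, and the share of all genes below 0 in it was not computed. There Slc16a3 stood at −1.84, Bnip3 at −1.32, Slc2a1 at −1.14, Ldha at −0.77, Pgk1 at −0.78, Gapdh at −0.69, Pkm at −0.65 and Tpi1 at −0.55, and Eno1 at 0.04. Such a window takes a higher part of the control cells and a lower part of the stressed cells, and whether UMIs per cell reflect cell content or sequencing depth cannot be told apart.

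**Figure D2:**
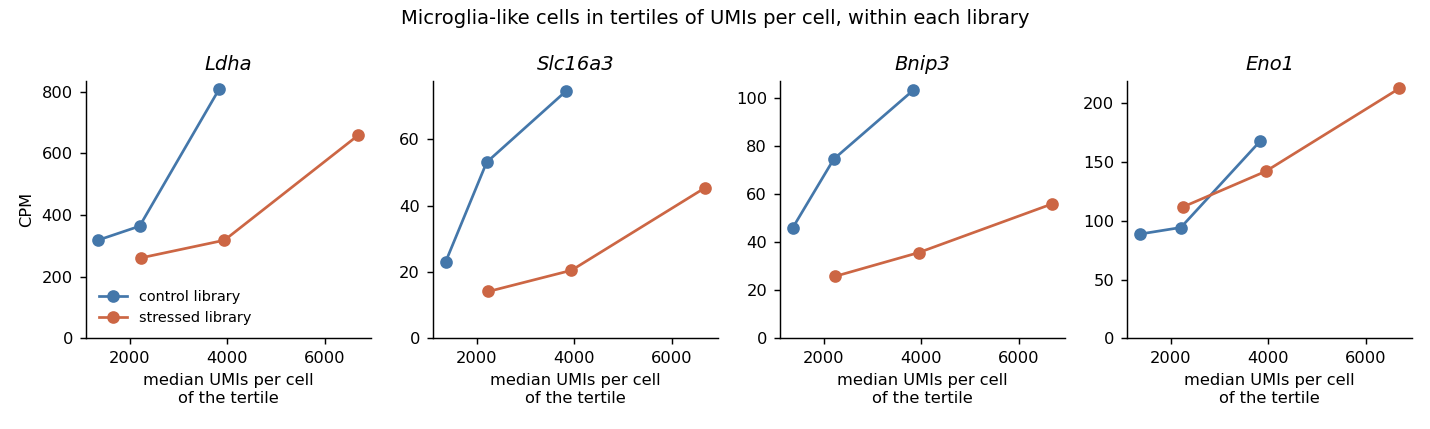
Level (CPM) of Ldha, Slc16a3, Bnip3 and Eno1 against the median UMIs per cell of each tertile of microglia-like cells, within each library. All rise with UMIs per cell, and at like UMIs per cell the stressed library lies below the control for Ldha, Slc16a3 and Bnip3.

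The share of cells with a UMI was compared after each cell was thinned to 1100 UMIs, which left 635 control and 1141 stressed microglia-like cells and left out 52 and 5. Slc16a3 was seen in 5.51% of control cells (3.87–7.58%, exact binomial) and in 2.54% of stressed cells (1.71–3.63%). Bnip3 was seen in 7.72% (5.76–10.1%) and 4.03% (2.97–5.34%), and Gapdh in 74.0% (70.4–77.4%) and 62.1% (59.2–64.9%). For these 3 genes the intervals of the libraries do not overlap. How many of all genes show such a gap after thinning was not computed. Without thinning the shares were 12.4% and 11.9% for Slc16a3, 16.4% and 15.7% for Bnip3, and 83.8% and 87.2% for Gapdh. In neural-like cells, taken as the class for background, the thinned share of Slc16a3 was 0.578% in control and 0.617% in stressed cells, 1 cell in each, and the share without thinning was 0.457% and 4.0%. Before thinning, median UMIs per cell were 1517 and 3220 in neural-like and 2204 and 3944 in microglia-like cells. The intervals of Ldha overlapped, at 36.1% (32.3–39.9%) and 32.3% (29.5–35.0%), and so did those of the other 6 genes. The 1% of cells with most UMIs of a gene held from 7.23% of its UMIs for Aldoa to 25.2% for Slc2a1, both in the stressed library.

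The next question was how the genes varied among microglial states. States were set by counts of genes outside the 10: cells with G2 and mitosis genes, cells with S phase genes, cells with the chemokines Ccl3 and Ccl4, Spp1-high cells, and the remaining resting-type cells, in that order. Resting-type cells numbered 358 in control and 565 in stressed cells, Ccl3 and Ccl4 cells 126 and 209, S phase cells 68 and 140, G2 and mitosis cells 111 and 211, and Spp1-high cells 24 and 21. Spp1 encodes osteopontin, a secreted protein of activated and developmental microglia. The sum of the 10 genes was highest in Spp1-high cells of both libraries, at 6022 CPM (5548–6525) in control and 5826 CPM (5428–6244) in stressed cells. It was lowest in resting-type cells, at 3634 CPM (3499–3773) and 2725 CPM (2653–2798). Spp1-high was the highest of the 5 states for 9 of the 10 genes in each library. The share of all genes that were highest in this state was not computed. Over all genes, the median log2 ratio of Spp1-high over resting-type cells was 0.26 in control and 0.07 in stressed cells. For Slc16a3 in the stressed library the lead was small, at 51.1 CPM from 7 UMIs against 50.1 CPM in Ccl3 and Ccl4 cells. That of Slc2a1 in the control rests on 4 UMIs. Median UMIs per cell were also lowest in resting-type cells, at 1792 and 3153, and highest in Spp1-high cells, at 4098 and 5621, and their part in the order was not tested.

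Against resting-type cells of the same library, Spp1-high cells had more Ldha, by a log2 ratio of 0.95 (0.60–1.29) in control and 1.52 (1.23–1.79) in stressed cells. Eno1 was higher by 1.10 (0.37–1.79) and 0.97 (0.44–1.46). Bnip3 gave 0.80 (−0.24 to 1.73), from 12 UMIs, and 2.32 (1.46–3.11), from 18 UMIs. For Slc16a3, with 5 and 7 UMIs in Spp1-high cells, both intervals held 0. Intervals lay above 0 for 6 of the 10 genes in the control, against 3.94% of all genes, and for 8 in the stressed library, against 5.83%. Most of the 10 genes have more UMIs than a typical gene and so narrower intervals, which makes these shares unlike in depth. The same holds for the shares of intervals given below for states and cell classes.

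Ccl3 and Ccl4 cells came next in the sum, at 4650 CPM (4432–4877) in control and 4100 CPM (3981–4221) in stressed cells. There 5 of the 10 genes had intervals above 0 against resting-type cells in the control (5.76% of all genes) and all 10 in the stressed library (11.6% of all genes). Bnip3 was higher by 0.77 (0.15–1.38) and 1.21 (0.67–1.76), and Ldha by 0.63 (0.40–0.86) and 0.96 (0.80–1.12). Tpi1 was higher by 0.35 (0.03–0.66) and 0.96 (0.77–1.14), and Aldoa by 0.22 (−0.02 to 0.46) and 0.20 (0.05–0.34). Aldoa was the gene with the smallest step in the stressed library. The counts of genes in the 2 libraries come from unequal numbers of UMIs, and the difference between the libraries in these steps was not tested.

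Cycling cells lay between. The sum was 4350 and 3663 CPM in S phase cells and 4093 and 3787 CPM in G2 and mitosis cells, in the control and the stressed library. In S phase cells, intervals lay above 0 for 5 genes in the control (7.49% of all genes) and for 8 in the stressed library (13.2%). Slc16a3, from 6 UMIs, was the only one below 0 in the control (3.28% of all genes were below). In G2 and mitosis cells, 2 genes were above 0 in the control (10.7% of all genes) and 7 in the stressed library (20.7%). With the thresholds of the states doubled, the median step of the 10 genes in S phase cells went from 0.33 to 0.03 in the control and from 0.52 to 0.06 in the stressed library, so it depends on where the thresholds are set. Doubling took the S phase cells from 68 to 43 in the control and from 140 to 54 in the stressed library. In G2 and mitosis cells of the control the median step went from 0.19 to 0.01. Within 20% of the S phase threshold lay 44 control and 68 stressed cells. Near that of G2 and mitosis lay 22 and 28, near that of Ccl3 and Ccl4 33 and 74, and near that of Spp1 17 and 30.

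**Figure D3:**
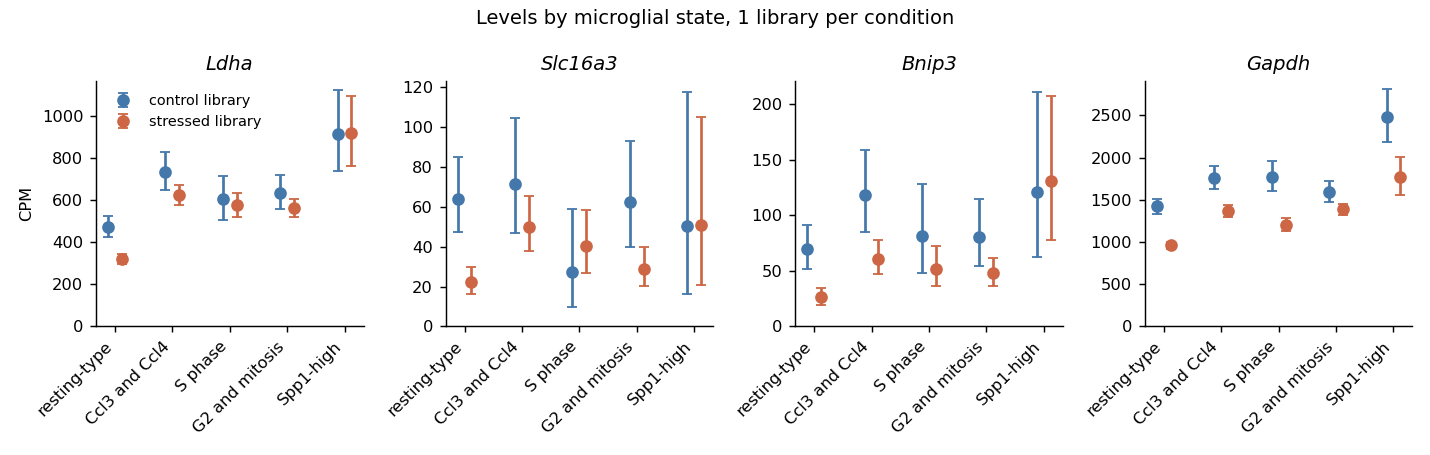
Level (CPM) of Ldha, Slc16a3, Bnip3 and Gapdh in 5 microglial states of the control and the stressed library, with 95% counting intervals as bars. Resting-type cells show a gap between the libraries for all 4 genes, while for Ldha, Slc16a3 and Bnip3 the points of Spp1-high cells nearly coincide.

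Of the 5 microglial states, resting-type cells had the ratio of the summed genes farthest from 0. Of single genes, Pgk1 (−0.53) and Slc2a1 (−1.32, from 8 and 10 UMIs) gave ratios farther from 0 in S phase cells. Eno1 did so in Ccl3 and Ccl4 cells (0.52) and in G2 and mitosis cells (0.46). Aldoa did so in every other state, up to 0.49 in Spp1-high cells. In resting-type cells Slc16a3 stood at 64.0 CPM (47.2–84.9) and 22.4 CPM (16.3–30.0), from 48 and 45 UMIs (log2 ratio −1.52, interval −2.14 to −0.90), or 2.86 times lower in the stressed library. Bnip3 stood at 69.4 CPM (51.8–91.0) and 26.4 CPM (19.8–34.5), from 52 and 53 UMIs (log2 ratio −1.40, interval −1.98 to −0.81), or 2.63 times lower. Neither pair of intervals overlaps. Ldha was lower by a log2 ratio of −0.56 (−0.75 to −0.37), Gapdh by −0.56 (−0.67 to −0.45), Pgk1 by −0.43 (−0.68 to −0.17), Tpi1 by −0.34 (−0.57 to −0.11) and Pkm by −0.34 (−0.55 to −0.13). Eno1 was higher by 0.39 (0.03–0.76). Aldoa, at −0.07, and Slc2a1, at −0.74 from 20 and 32 UMIs, had intervals that hold 0. In all, 7 of the 10 genes had intervals below 0, against 9.47% of all genes, and 1 above, against 4.18%. The sum differed by −0.42 (−0.48 to −0.35).

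In the other states the ratio of the sum was closer to 0, and the difference between states was not tested. The sum of the 10 genes gave −0.18 (−0.26 to −0.10) in Ccl3 and Ccl4 cells, −0.25 (−0.36 to −0.14) in S phase cells, −0.11 (−0.19 to −0.03) in G2 and mitosis cells and −0.05 (−0.20 to 0.11) in Spp1-high cells. Bnip3 was lower in Ccl3 and Ccl4 cells by −0.95 (−1.53 to −0.36) and in G2 and mitosis cells by −0.74 (−1.39 to −0.07). In S phase cells Bnip3 gave −0.64 (−1.50 to 0.26). Slc16a3 gave −0.51 (−1.21 to 0.22) in Ccl3 and Ccl4 cells and −1.11 (−1.89 to −0.30) in G2 and mitosis cells. In S phase cells Slc16a3 stood above 0, at 0.58 (−0.72 to 2.14), from 6 and 28 UMIs. Its ratio in Spp1-high cells was 0.02 (−1.85 to 2.02), from 5 and 7 UMIs. In Spp1-high cells Bnip3, at 121 and 131 CPM, and Ldha, at 918 and 920 CPM, were close in the libraries, with wide intervals for Bnip3. Gapdh was lower in every state, from −0.20 (−0.33 to −0.06) in G2 and mitosis to −0.56 (−0.73 to −0.38) in S phase cells. Intervals lay below 0 for 3 of the 10 genes in Ccl3 and Ccl4 cells (6.14% of all genes), 2 in S phase cells (4.81%), 3 in G2 and mitosis cells (5.72%) and 1 in Spp1-high cells (1.82%). They lay above 0 for 1, 0, 1 and 1 genes, against 3.64%, 2.39%, 3.91% and 1.69%. Spp1-high cells are few, so their intervals are the widest of the states. With the control's share of each state given to both libraries, Bnip3 stood at −0.87 and Slc16a3 at −0.86 over all microglia-like cells, close to the values without it.

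**Figure D4:**
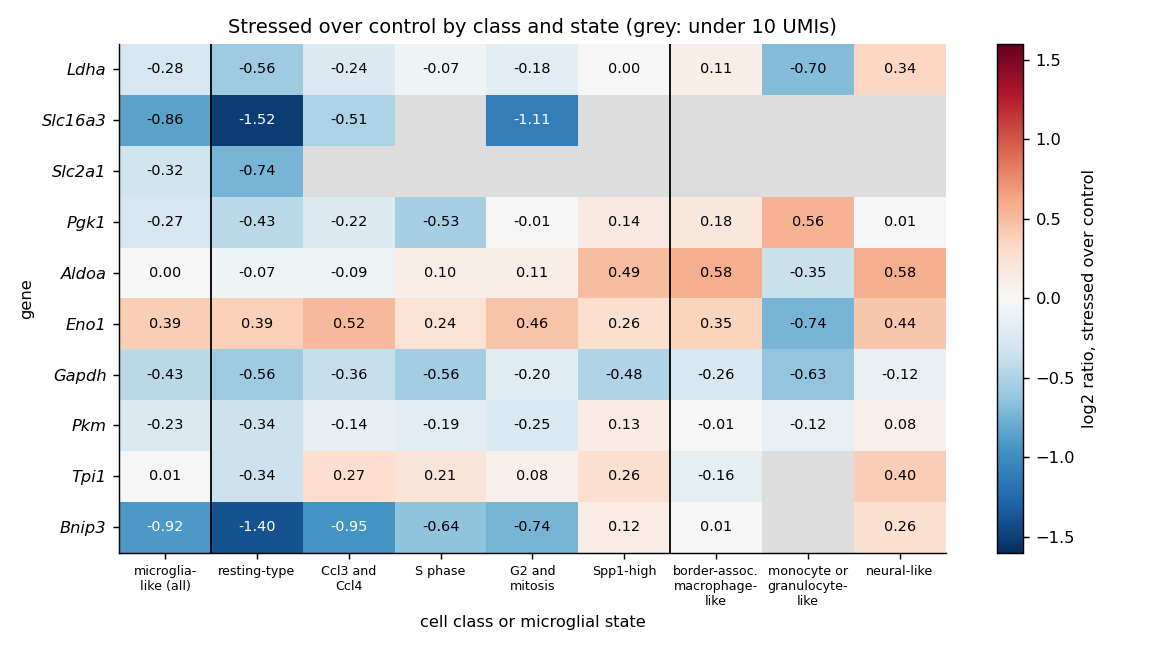
Log2 ratio of stressed over control for each gene (rows) in all microglia-like cells, in 5 microglial states and in 3 other classes (columns), with the value in each cell. Grey marks fewer than 10 UMIs in a library. Slc16a3 and Bnip3 are lowest in resting-type cells, and Eno1 is above 0 in every column but that of monocyte or granulocyte-like cells.

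Other cell classes served to place the microglial levels. Border-associated macrophage-like cells, macrophages of the brain's borders, numbered 78 and 28. Their sum of the 10 genes was 4239 CPM (4008–4480) in control and 4195 CPM (3921–4482) in stressed cells (log2 ratio −0.02, interval −0.14 to 0.11). Bnip3 was at 57.2 CPM (33.3–91.6), from 17 UMIs, and 57.6 CPM (29.8–101), from 12 UMIs, and its ratio of 0.01 has an interval from −1.19 to 1.16. Aldoa was higher in the stressed library by 0.58 (0.21–0.95) and Gapdh lower by −0.26 (−0.45 to −0.07). These were the only intervals without 0, 1 above, against 3.49% of all genes, and 1 below, against 2.89%. Slc16a3 was rare there, at 16.8 CPM from 5 UMIs and 14.4 CPM from 3 UMIs. In the control, its log2 ratio over microglia-like cells was −1.83 (−3.48 to −0.57). Gapdh was higher than in microglia-like cells, by 0.33 (0.21–0.46) and 0.51 (0.35–0.66).

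Monocyte or granulocyte-like cells, 32 and 26, had 270 and 333 UMIs of the 10 genes, at 3567 CPM (3154–4019) and 2637 CPM (2362–2936). Their summed level of 10 class markers differed in the same direction, at 27888 and 7524 CPM, and its part in the result was not tested. Gapdh, at 1757 and 1132 CPM, had the only interval below 0 (−0.98 to −0.28), against 1.68% of all genes, and none lay above 0, against 2.04%. Eno1, from 18 UMIs in each library, stood at 238 and 143 CPM (log2 ratio −0.74, interval −1.76 to 0.29). Tpi1 was below the microglia-like level in both libraries, by −1.53 (−2.66 to −0.59) and −1.54 (−2.38 to −0.81). Bnip3 was counted 0 times and 1 time, and Slc2a1 0 and 3 times, so neither gives a ratio.

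Neural-like cells carried through the sort, 219 and 175, held lower levels than microglia-like cells. Their intervals lay below 0 for 8 of the 10 genes in the control, against 18.5% of all genes, and for 8 in the stressed library, against 18.9%. Ldha stood at 167 CPM (132–209) and 211 CPM (180–246), 3.60 and 2.34 times below the microglia-like level of the same library. Aldoa stood at 148 CPM (115–187) and 220 CPM (188–256), 3.70 and 2.49 times below. Slc16a3 was counted 1 time and 8 times. Microglial markers summed to 337 and 1520 CPM in these cells, with 2 and 0 of the 14 markers at 0, and their part in the smaller gap of the stressed library was not tested. Between the litters, the sum gave 0.10 (−0.02 to 0.22). Aldoa had the only interval above 0, at 0.58 (0.16–1.00), against 5.82% of all genes, and none of the 10 lay below, against 7.19%.

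Within neural-like cells, those with more progenitor than neuron marker UMIs (70 and 75 cells) were compared with those in which neuron markers led (145 and 96 cells). Intervals lay above 0 for 5 of the 10 genes in the control, against 11.2% of all genes, and for 4 in the stressed library, against 12% of all genes. Gapdh had the only interval below 0, at −0.33 (−0.61 to −0.06) in the control, against 7.27% of all genes, and gave −0.07 (−0.28 to 0.15) in the stressed library. Ldha was higher in the progenitor side by a log2 ratio of 1.45 (0.72–2.23) in control and 1.49 (0.92–2.11) in stressed cells. Pgk1 was higher by 1.97 (1.16–2.85) and 0.79 (0.20–1.41), Eno1 by 0.96 (0.06–1.90) and 0.89 (0.26–1.56), and Tpi1 by 0.84 (0.16–1.55) and 0.92 (0.42–1.45). Slc2a1 was also above 0 in the control, where the neuron side had 0 UMIs. The intervals of Pkm, at 0.04 (−0.53 to 0.60) and −0.06 (−0.49 to 0.37), and of Aldoa, at 0.61 (−0.11 to 1.36) and 0.02 (−0.44 to 0.50), held 0. An unnamed last cluster was led by haemoglobin and vascular genes and had 52 and 32 cells and a sum of the 10 genes of 2906 and 1648 CPM. Its erythroid markers summed to 124980 CPM in control and 305687 CPM in stressed cells, which lowers the CPM of other genes.

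Lactate dehydrogenase is built from the Ldha subunit and from Ldhb, which favours pyruvate, so the UMIs of both were set side by side. In microglia-like cells Ldha made up 64.7% of the 1690 control UMIs of the pair (62.4–67.0%, exact binomial) and 87.2% of the 2935 stressed UMIs (85.9–88.4%). The difference in share came with Ldhb, which stood at 328 CPM (302–355) in control and 72.6 CPM (65.4–80.3) in stressed cells, while Ldha itself was lower. The share was higher in the stressed library in each state, from 54.5% and 81.6% in resting-type to 79.1% and 92.0% in Spp1-high cells, where Ldha itself was level. In neural-like cells Ldhb was at 224 CPM (183–271) and 217 CPM (186–253), and Ldha made up 42.8% (35.4–50.4%) and 49.2% (43.7–54.8%) of the pair. There the progenitor side had 62.7% (51.3–73.0%) and 65.1% (57.9–71.8%), and the neuron side 24.2% (16.0–34.1%) and 23.7% (16.7–31.9%). The progenitor and neuron sides did not overlap in either library. Border-associated macrophage-like cells had 91.6% (86.3–95.3%) and 93.5% (87.6–97.2%), with 14 and 8 Ldhb UMIs.

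The rest of the pathway was read in microglia-like cells from lists, with genes of at least 10 CPM in either library measured. Of 14 other glycolytic enzymes 8 were measured. Of these, 1 was at least 1.5 times lower and 0 higher (7.43% and 3.16% of all genes), and the median log2 ratio was −0.39. Ldhb gave −2.17 (−2.36 to −1.99). Pfkl, a subunit of phosphofructokinase, gave −0.48 (−0.81 to −0.14), from 62.7 and 45.0 CPM. Hk2, the hexokinase tied to mitochondria and to HIF, gave −0.43 (−0.62 to −0.23), from 170 and 127 CPM. Bpgm, which makes 2,3-bisphosphoglycerate, gave −0.57 (−1.28 to 0.18). All 8 were below 0, as were 60.7% of all genes, and 7 were with TMM scaling, as were 45.9% of all genes.

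Of 7 other sugar and lactate carriers 6 were measured, with a median of 0.04. Of these, 1 was at least 1.5 times lower and 0 higher (7.43% and 3.16% of all genes). Slc2a3, the high-affinity glucose carrier GLUT3, stood at 39.6 and 22.0 CPM (log2 ratio −0.85, interval −1.28 to −0.40). Slc2a5, a fructose carrier that marks microglia, stood at 36.8 and 53.7 CPM (log2 ratio 0.54, interval 0.15–0.95), and passed 1.5 times with TMM scaling and in cells with Xist. Slc16a1, the lactate carrier MCT1, gave −0.15 (−0.71 to 0.44), and Slc16a7, the carrier MCT2, gave 0.33 (−0.29 to 0.99). Of these 3 lactate carriers, only Slc16a3 had an interval that did not hold 0.

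Of 10 genes of pyruvate entry into mitochondria 8 were measured, with a median of 0.03. Of these, 1 was at least 1.5 times lower and 0 higher (7.43% and 3.16% of all genes). The lower one was Pdk1, a kinase that shuts pyruvate dehydrogenase and a HIF target, at 28.6 and 18.3 CPM (log2 ratio −0.64, interval −1.14 to −0.12), or −0.53 and under 1.5 times with TMM scaling. Its relative Pdk3 gave 0.25 (−0.29 to 0.82), and the dehydrogenase components Dlat and Dld gave 0.21 (−0.47 to 0.96) and 0.12 (−0.31 to 0.57).

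Of 26 genes of oxygen sensing and other hypoxia targets 19 were measured, with a median of −0.24. Of these, 3 were at least 1.5 times lower and 0 higher (7.43% and 3.16% of all genes). The lower ones were Ero1l, an oxidase of protein folding, at −0.87 (−1.40 to −0.33), Ankrd37 at −0.78 (−1.41 to −0.13) and Pdk1, which is in both lists. Arnt, the partner of the HIF alpha subunit, gave −0.48 (−1.01 to 0.07). Hif1a itself, named after its value was seen, gave −0.40 (−0.61 to −0.19), from 149 and 113 CPM. Bnip3l, the closest relative of Bnip3 and also named after its value was seen, gave 0.07 (−0.16 to 0.30), from 114 and 120 CPM. In all 15 of the 19 were below 0, as were 60.7% of all genes, and 12 were with TMM scaling, as were 45.9% of all genes. Hk2, and Pgam1 and Pfkfb3, named here for this alone, were below 0 and are counted among the other glycolytic enzymes as well. The lists therefore overlap. The list had 2 genes lower with TMM scaling, 0 of 7 at a minimum of 50 CPM, and 3 lower and 1 higher in cells with Xist. At 50 CPM 2.95% of all genes were that much lower. Shares of all genes were not set beside the counts with TMM scaling and in cells with Xist. The 7 genes of the pentose phosphate pathway, which draws on the same glucose phosphate, were all measured. Of the pathway's genes 0 were lower and 0 higher (7.43% and 3.16% of all genes), with a median of −0.14. G6pdx, its entry enzyme, gave −0.53 (−0.99 to −0.07), Pgd −0.35 (−0.61 to −0.09), Rpia −0.34 with an interval that holds 0 and Taldo1 0.26 (0.09–0.43).

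The genes most like the mean of the 10 in pattern were sought over 16 units, each a class or microglial state in 1 library, among 5381 genes. The highest correlations of log2(CPM + 10) were those of Spp1 (0.96), Hsp90b1 (0.96), Arl8b (0.94), Hspa5 (0.93), Vps13c (0.92), Igf1 (0.92), Calr (0.92) and Pdia6 (0.92). Hsp90b1, Hspa5, Calr and Pdia6 encode chaperones and folding enzymes of the endoplasmic reticulum. Spp1 sets 1 of the states, and the units share libraries and differ in depth, so these values describe the order of the units only. Of the genes themselves, Ldha (0.95), Pgk1 (0.91) and Pkm (0.90) were closest to the mean and Eno1 (0.53) farthest, while Slc2a1 was below the level needed.

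Slc16a3 and Bnip3 remained at least 1.5 times lower in stressed microglia-like cells under every one of 17 other ways of processing, which included cells with Xist, non-cycling cells and cells of less dissociation response. Their log2 ratios ranged from −1.84 to −0.75 and from −1.32 to −0.74. Ldha, Gapdh, Pgk1, Pkm and Slc2a1 were below 0 in all 17, and Eno1 was above 0 in 18 of 18. Its size was less stable, as Eno1 gave 0.15 in cells thinned to 1100 UMIs. There it was seen in 13.1% of control cells (10.5–15.9%) and 13.6% of stressed cells (11.6–15.7%). Aldoa and Tpi1 had no stable sign, from −0.27 to 0.19 and from −0.55 to 0.12. Scaling with TMM factors moved the median of all genes from −0.08 to 0.03, and Aldoa then stood at 0.11 and Tpi1 at 0.12.

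**Figure D5:**
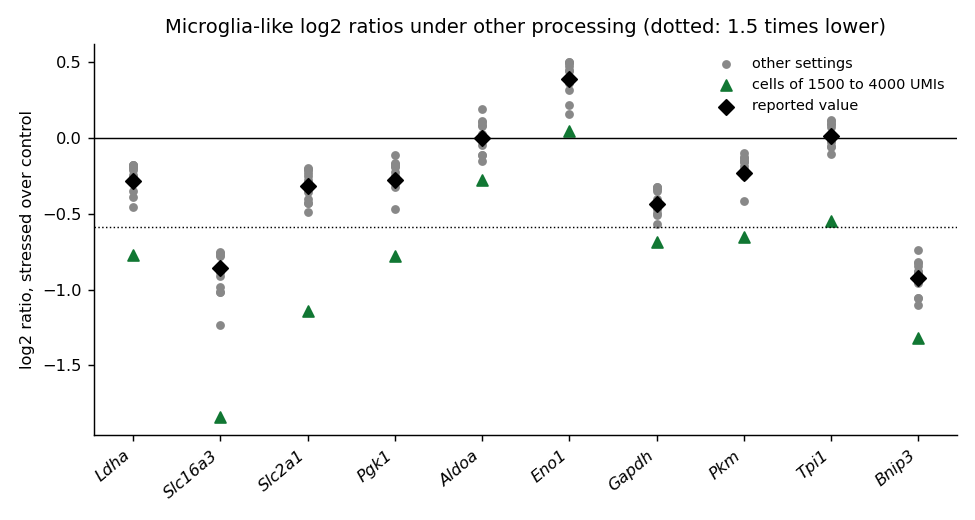
Log2 ratio of stressed over control in microglia-like cells for each gene as reported (diamonds), for cells of 1500 to 4000 UMIs (triangles) and for the other settings (grey points), with 1.5 times lower as a dotted line. All points of Slc16a3 and Bnip3 lie below that line, and all of Eno1 lie above 0.

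Gene positions on GRCm38 from the GENCODE M21 annotation place Ldha at chr7:46841475-46855627, Slc16a3 at chr11:120948480-120960868 and Eno1 at chr4:150236721-150248879 on the plus strand. Bnip3 lies at chr7:138890836-138909519 and Tpi1 at chr6:124810586-124814296 on the minus strand. All 10 are protein coding, and none overlaps another counted gene on its own strand. Aldoa, Gapdh and Tpi1 overlap Fam57b, Iffo1 and Spsb2 on the other strand, Bnip3 overlaps the antisense gene Gm45507 and the pseudogene Gm18258, and Slc2a1 the antisense genes Gm12867 and Gm12868. For these 5 genes reads of the partner cannot be told apart without strand, and whether counting used strand is not given in the sources used here. The near-identical copy Eno1b was counted 6 and 10 times in microglia-like cells, and with it added Eno1 gave 0.37. The copies Aldoart1 and Aldoart2 were counted 0 times in the control and 1 time each in the stressed library. The symbol Aldoa has 2 features, of which the one with most UMIs was used. The other was counted 0 times in microglia-like cells of each library. How reads that match several copies were counted is not given in the sources used here.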

How the data were processed

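Droplet 3′ libraries (10x Genomics v3) were made from sorted cells. The authors deposited UMI counts, unnormalized, for each gene in each barcode. Cell Ranger 3.0.0, STAR, Seurat 2.4 and GRCm38.p5 (mm10) appear per the submitters' processing notes, with no role stated. Barcodes with 500 or more genes and no more than 10% mitochondrial UMIs entered (1068 control, 1407 stressed). Both libraries were clustered together (scanpy 1.11.5, igraph 0.11.9, Leiden resolution 0.5) without the 10 genes, the pathway lists and sex-linked genes, and a cluster took the name of the marker list with the highest summed CPM, except that a haemoglobin-led cluster stayed unnamed. Doublets were kept; Scrublet's own threshold marked 0 and 11 cells, so an alternative removed the top 3.5% of scores (37 and 49 cells).

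States needed at least 3 UMIs and 10 per 10000 of the cycle lists, 2 UMIs and 5 per 10000 of Ccl3 and Ccl4, or 100 per 10000 of Spp1. Counts were summed per class and divided by the class total (CPM). Sums have exact Poisson, ratios exact conditional and shares exact Clopper-Pearson intervals. Members and lists were chosen with earlier results of these data known, as were the rules. Genes named were the 10, up to 4 of each list with the largest ratios, and the 8 most alike; exceptions are marked. The summing and ratio step was checked on simulated data. edgeR 4.0.16 TMM and DESeq2 1.42.0 size factors served as scaling alternatives only. Figures used matplotlib 3.10.9.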

Additional observations from a re-analysis of the deposited data

How the results depend on the processing

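The median log2 ratio of the 10 genes in microglia-like cells, −0.28, went to −0.44 in cells with 1000 or more genes and no more than 5% mitochondrial UMIs and to −0.73 with cells of 1500 to 4000 UMIs. The number of genes at least 1.5 times lower went from 2 to 7 in that window and to 0 at a threshold of 2 times. Over all genes the median was −0.08 without the window and −0.10 in it. The share of all genes at least 1.5 times lower in the window was not computed. Of the other settings the medians of the 10 genes ranged from −0.30 to −0.17, with TMM giving −0.17. No gene with an interval off 0 changed sign under these settings; within the low tertile of UMIs per cell, Pkm did. The cause of the shift in the window was not tested. At 50 CPM 2.95% of all genes, and with any UMI 26.8%, were at least 1.5 times lower. Depth limits Slc2a1 in every class, and Slc16a3 and Bnip3 outside microglia-like cells. Alternatives added after seeing the data were the UMI window, the shared state shares and the removal of shared barcodes. No paired analysis was possible because each condition has 1 library.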
